A study of Mus musculus with 10 samples.

Results

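Th2 lymphocytes and ILC2s (group 2 innate lymphoid cells) were set against resting CD4+ lymphocytes by their maps of histone H3 dimethylated at lysine 4 (H3K4me2). The effector side held 4 libraries, Th2 cells and ILC2s of the bronchoalveolar lavage and of the mediastinal lymph node. The resting side held 2 libraries, the cells labelled naive T cells of the mediastinal lymph node and the CD4+ lymphocytes of the spleen. These are 6 of the 10 samples in the series. The lavage library labelled naive T and the CD4+ thymus library entered neither side and were read only afterwards, and the 2 immunoglobulin G samples of spleen and thymus were not analysed here. Per the labels, the mice carried Gata3-YFP/YFP, a fluorescent reporter allele, and had airway inflammation, which the resting cells therefore shared, and cells were sorted by flow cytometry before a Nextera library protocol. The sorted cells were read in bulk, so fewer marked cells and less mark per cell cannot be told apart. The labels give no age, strain or sort gate, and do not say which libraries share an animal, so every p-value below measures only the spread between these samples.

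H3K4me2 marks promoters and enhancers that are active or poised, so its map shows which regulatory elements a cell type keeps accessible. Th2 cells are CD4+ T cells that see allergen through the T cell receptor, whereas ILC2s lack that receptor and answer alarmins such as interleukin 33. Both make type 2 cytokines under the transcription factor GATA3. Resting CD4+ T cells circulate between blood and lymphoid organs, guided by CCR7 and S1PR1 under factors such as KLF2, FOXO1, TCF1 and LEF1.

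Peaks of the 6 libraries lying within 500 bp of each other were merged into 27721 regions, and a region differed when it had a peak in every library of one side and none of the other. By this rule 696 regions (2.51% of all) were called only in Th2 cells and ILC2s, and 3104 (11.2%) only in resting CD4+ cells, while 11688 were called in all 6 libraries. A missing call means that the region did not meet the authors' thresholds, which lay near 40 normalized tags per 10000000, not that the mark was absent. The total tags ran between 11870820 and 24945548, and the authors' share of tags in peaks was 28.71% and 29.3% in Th2 cells and 43.2% and 44.99% in ILC2s, against 53.68% in lymph node naive T cells and 44.18% in the spleen. With the same number of peaks taken from every list, the 14723 tallest, the counts were 959 and 1392, so the excess on the resting side moved with the length of the lists. The Th2 libraries set against the resting ones without the ILC2s gave 940 and 5923 regions, and the ILC2 libraries without the Th2s gave 3959 and 3490.

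The labelled identities were checked on defining genes. Gata3 had 2198.0 and 2411.0 tags in Th2 cells and 3460.7 and 3461.6 in ILC2s, lavage first, against 2107.7 tags in naive T cells and 1908.4 in the spleen. The region over Cd3d and Cd3g, which encode CD3 chains, had 1559.7 and 1634.3 tags in Th2 cells and 264.1 and 275.1 in ILC2s, against 2736.2 and 2228.2 in resting cells. Cd4 was called in both Th2 libraries (843.4 and 840.7 tags) and both resting ones (1251.3 and 1047.5) and had no peak in either ILC2 library. The libraries also differed in sex-linked genes: both ILC2 libraries had peaks at the Y-linked genes Kdm5d, Eif2s3y, Uty and Ddx3y and none at Xist, while Xist had 172.7 and 155.0 tags in Th2 cells, against 727.2 in naive T cells and 605.5 in the spleen. Of the effector-only regions 12 (1.72%) lay on the X chromosome and of the resting-only ones 101 (3.25%), beside 2.23% of all merged regions. On the autosomes alone 684 and 3003 regions differed. Whether that difference between animals has a part in the results, on any chromosome, was not tested.

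The 2 sides were compared first at the genes whose products define type 2 immunity. Across the interval of Il4, Il13, Rad50 and Il5, genes that lie side by side on chromosome 11, the effector libraries carried broad blocks of H3K4me2. The region over Il4, which encodes the cytokine that drives Th2 differentiation and IgE switching (chr11:53613421-53620590), had 495.0 and 551.8 tags in Th2 cells and 478.6 and 507.7 in ILC2s, against no peak in either resting library. Over Il13, which encodes an inducer of mucus and airway hyperreactivity (chr11:53622351-53639942), the tags were 961.2 and 739.6 in Th2 cells and 1140.9 and 1071.8 in ILC2s, again with no peak in resting cells. Within Rad50, a DNA repair gene whose body contains the locus control region of these cytokines, one region was called only in effector cells with a mean of 772.1 ± 78.5 tags (SD, n = 4).

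Il5, the eosinophil growth factor gene, lay in a merged region that reached into Rad50 and was called on both sides. From the left end of Il4, the resting peaks in it ran from 93.19 to 95.88 kb (naive T) and 93.39 to 95.8 kb (spleen). They stood at the end of Rad50 (94.86 kb), and Il5 itself (108.33 to 112.64 kb) had no resting peak. Over the whole region the tags were 871.5 and 871.8 in Th2 cells and 1978.3 and 2223.8 in ILC2s, against 251.5 in naive T cells and 206.5 in the spleen. The region was higher in effector cells by 3.08 on the log2 scale (SE 0.3, adjusted p = 0.0017 by limma). It was also higher in ILC2s than in Th2 cells by 0.84 (adjusted p = 0.00094). Called peaks covered 13880 to 22581 bp of it in effector libraries and 2690 and 2418 bp in resting ones. Per kb of peak the difference was 0.3, so most of the gap lay in covered length, including peaks over Il5 that resting libraries lacked.

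**Figure D1:**
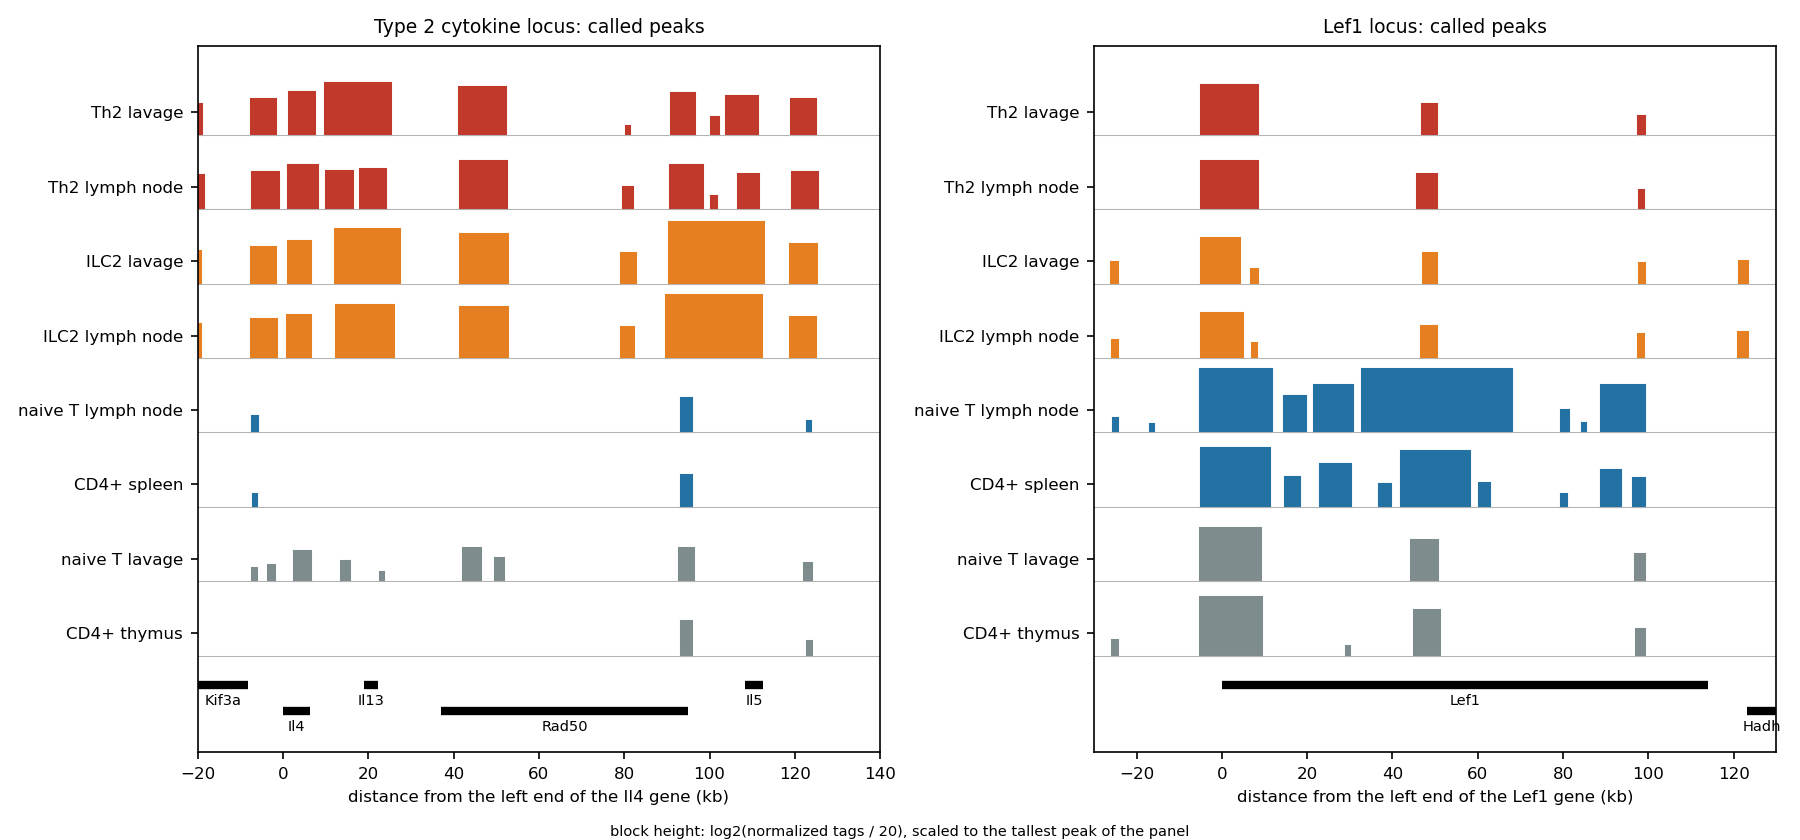
Called peaks in the type 2 cytokine locus (left) and the Lef1 locus (right), 1 row a library, with distance from the left end of Il4 or Lef1 in kb on the horizontal axis. Blocks span each peak and rise with the log2 of its normalized tags; red, orange and blue mark Th2, ILC2 and resting libraries and grey the 2 libraries left out of the comparison. Blocks fill the cytokine locus in the 4 effector rows, whereas the wide blocks inside Lef1 stand in the naive T lymph node and spleen rows.

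Receptor genes for alarmins followed. Il1rl1, which encodes the interleukin 33 receptor ST2, held 3 regions called only in effector cells, and the tallest covered the gene's annotated starts (chr1:40422920-40448385). In Th2 cells it had 1512.3 and 1089.2 tags, and in ILC2s it had 2998.1 and 2893.1, with no peak in naive T cells of the lymph node or in the spleen. The ILC2 values lay above both Th2 values there, and the uncentred ILC2 mean exceeded the Th2 mean in 79.7% of effector-only regions and 86.2% of all common regions. Il17rb, the gene of the interleukin 25 receptor subunit, shared its region with Chdh and behaved differently. There the tags were 259.3 and 285.6 in Th2 cells and 2250.5 and 2339.0 in ILC2s, against 546.8 and 392.5 in resting cells. The effector and resting groups overlapped, the difference of 1.29 did not pass the test (adjusted p = 0.34), and ILC2s exceeded Th2 cells by 2.64 (adjusted p = 0.00015).

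The promoters inside these regions are shown because the regions of Il1rl1, Il13, Il4 and Il9r covered an annotated start that resting cells left uncalled, and those of Nsg2 and Ccr9 the reverse. They are 1 start each of genes named here, chosen after their values were seen. The 250 bases upstream of the start come from RefSeq on GRCm38.p6. Capitals mark 6 short letter strings on either strand: GATAA (GATA factors), TGANTCA (AP-1), TCAAAG (TCF and LEF), TGTGGT (RUNX), GGAAGT (ETS) and CCACCC (KLF).
Il1rl1 (chr1:40429320-40429569, plus strand): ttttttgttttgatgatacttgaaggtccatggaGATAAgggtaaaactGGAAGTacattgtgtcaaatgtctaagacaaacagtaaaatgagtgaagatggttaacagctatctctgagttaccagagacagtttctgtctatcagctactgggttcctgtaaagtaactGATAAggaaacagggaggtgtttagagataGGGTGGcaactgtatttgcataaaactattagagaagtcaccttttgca
Il13 (chr11:53634703-53634952, minus strand): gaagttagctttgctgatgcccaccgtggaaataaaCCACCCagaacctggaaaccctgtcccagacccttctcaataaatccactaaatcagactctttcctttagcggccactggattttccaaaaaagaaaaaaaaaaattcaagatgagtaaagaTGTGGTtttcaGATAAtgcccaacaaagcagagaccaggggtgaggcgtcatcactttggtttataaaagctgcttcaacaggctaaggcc
Il9r (chr11:32200280-32200529, minus strand): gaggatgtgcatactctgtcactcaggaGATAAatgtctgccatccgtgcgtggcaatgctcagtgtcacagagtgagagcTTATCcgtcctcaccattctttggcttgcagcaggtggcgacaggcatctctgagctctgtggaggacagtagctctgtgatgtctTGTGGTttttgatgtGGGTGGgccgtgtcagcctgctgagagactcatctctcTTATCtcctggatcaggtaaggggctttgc
Il4 (chr11:53618666-53618915, minus strand): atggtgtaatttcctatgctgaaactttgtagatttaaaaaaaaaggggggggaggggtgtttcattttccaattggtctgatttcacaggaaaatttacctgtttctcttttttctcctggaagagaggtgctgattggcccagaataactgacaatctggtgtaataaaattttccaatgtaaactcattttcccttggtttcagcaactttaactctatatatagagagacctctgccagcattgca
Nsg2 (chr11:32000169-32000418, plus strand): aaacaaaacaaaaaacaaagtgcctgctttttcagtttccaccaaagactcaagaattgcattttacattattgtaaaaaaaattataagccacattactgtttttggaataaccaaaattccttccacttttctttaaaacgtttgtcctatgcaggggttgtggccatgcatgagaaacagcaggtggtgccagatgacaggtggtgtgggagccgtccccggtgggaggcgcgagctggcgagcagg
Ccr9 (chr9:123766961-123767210, plus strand): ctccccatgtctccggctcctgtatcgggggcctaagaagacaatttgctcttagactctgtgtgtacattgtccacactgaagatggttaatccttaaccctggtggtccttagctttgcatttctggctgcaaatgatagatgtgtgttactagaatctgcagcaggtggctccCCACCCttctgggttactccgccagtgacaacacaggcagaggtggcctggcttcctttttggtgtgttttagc

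GATAA or its complement stood in the promoters of Il1rl1, Il13 and Il9r and not in those of Il4, Nsg2 and Ccr9. Among promoters of all listed genes it was found in 6 of 14 in effector-only regions and in 1 of 13 in resting-only ones. GATAA was found in 18 of 56 promoters in effector-only regions (32.1%), against 65 of 449 in resting-only regions (14.5%), 13.5% in regions called in all 6 libraries and 22.6% of all 32851 promoters. The AP-1 string was found in 11 of the 56 (19.6%), against 4.23% of resting-only promoters, 3.75% of those in common regions and 6.75% of all. The KLF string was found in 32.1% of effector-only and 39.2% of resting-only promoters, against 28.1% of all, and the TCF and LEF string in 10.7% and 12.9%, against 13.8% of all. The RUNX string was found in 19.6% and 14.7%, against 14.0% of all, and the ETS string in 28.6% and 19.8%, against 19.7%. Such matches describe letters and are not sites of binding.

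The tallest regions of each pattern, chosen by their lowest library on the called side, are drawn in the plot of call pattern regions. The tallest effector-only region of all lay in a stretch without a protein-coding gene within 100 kb (chr2:8940856-8971080), and the nearest one was Gata3, 886 kb away. It had 2016.6 and 2767.3 tags in Th2 cells and 2361.5 and 2776.6 in ILC2s, with no peak in the resting libraries. Rbpj, which encodes the DNA-binding partner of Notch, had a region 7529 bp outside the gene with 970.0 and 654.6 tags in Th2 cells and 1117.6 and 1368.8 in ILC2s. On the resting side the tallest region also stood far from genes (chr15:60163491-60181416), 147 kb from 4933412E24Rik and 1804 kb from Myc. It had no peak in any effector library, against 2036.6 tags in naive T cells and 1459.5 in the spleen.

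Il21r, the receptor gene for the follicular cytokine interleukin 21, held 4 resting-only regions, the tallest with no effector peak, against 992.1 and 751.4 tags in resting cells. Slc12a7, a potassium chloride cotransporter gene, had 900.7 and 644.7 tags in resting cells, and Man1a2, a Golgi mannosidase gene, 672.0 and 504.8, each without an effector peak. Lef1 contributed a region of 765.0 and 510.0 tags to the same group. Just inside the rule were many regions near the peak threshold. The lowest library of an effector-only region had a median of 65.2 tags and that of a resting-only region 63.4, and 262 effector-only (37.6%) and 1040 resting-only regions (33.5%) had 80 or more tags in every library of their side.

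**Figure D2:**
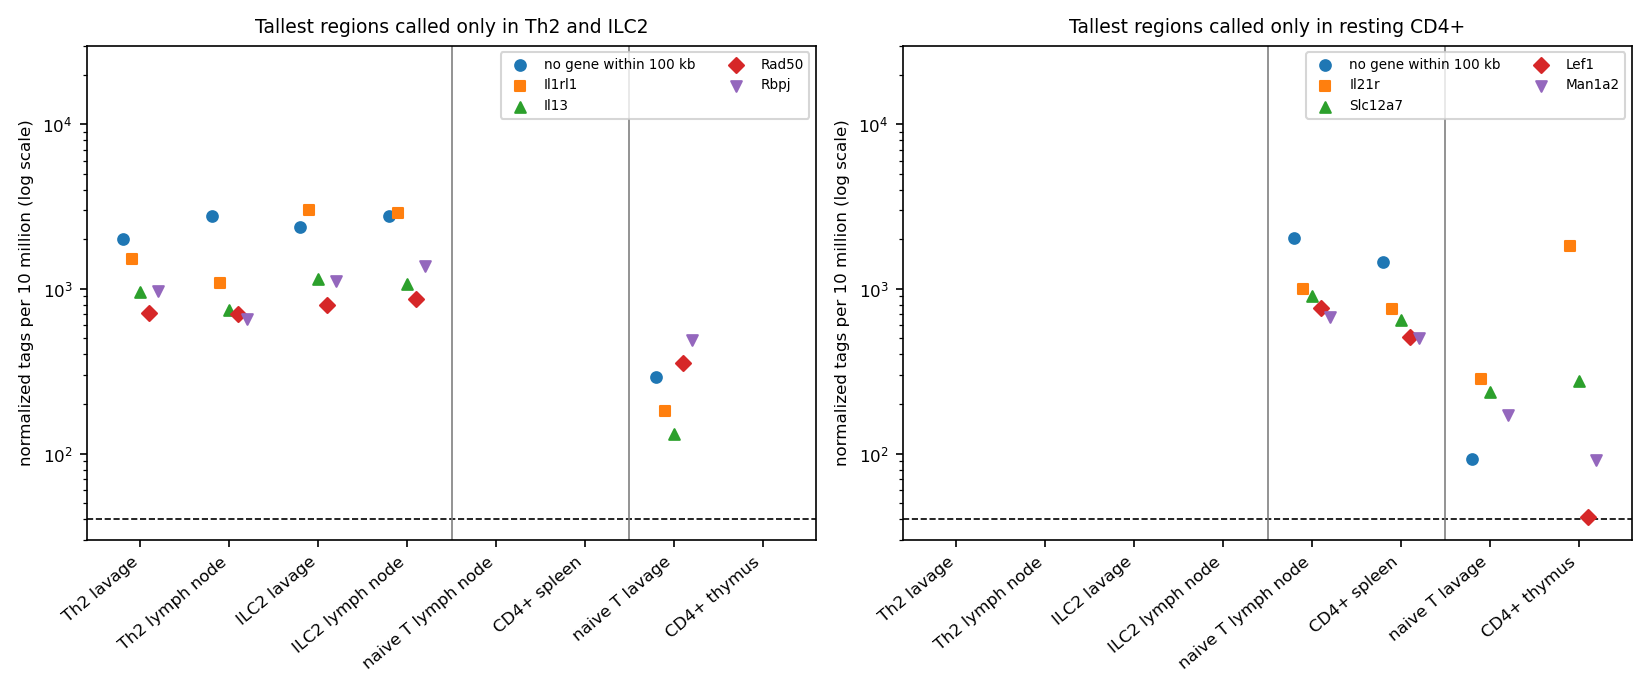
Normalized tags per 10000000 on a log axis in each of the 8 libraries for the 5 tallest regions called only in Th2 cells and ILC2s (left) and only in resting CD4+ cells (right), with the peak threshold of about 40 tags dashed. A library without a point had no called peak; the lavage naive T library had a peak at each of the 5 effector-only regions, between 131.7 and 490.7 tags.

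Transcription factor genes of type 2 cells leaned to the effector side. Of 127 regions nearest the 21 list members with a region, 19 (15%) were called only in effector cells and 2 (1.57%) only in resting cells, beside 2.37% and 10.8% over all 26496 regions with a gene. Of their 37 common regions, 21 were higher in effector cells and 0 lower, beside 11.7% higher and 7.3% lower over all common regions, and their median log2 difference was 1.01, against -0.02 over all. Without centring of the libraries the counts were 14 and 3. With genes taken within 10 kb only, 7 regions were effector-only and 2 resting-only. This list and those below were chosen with earlier results of these libraries known, so their directions are not independent evidence.

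Pparg, a nuclear receptor of lipid metabolism that Th2 cells and ILC2s need, had 4 effector-only regions within the gene and no resting-only region. The one over its start had 547.9 and 488.6 tags in Th2 cells and 1196.2 and 1466.9 in ILC2s, with no peak in resting cells. Maf, a factor that drives Il4 and Il10, and Epas1, which encodes the hypoxia factor HIF-2α, also had 4 effector-only regions each. Those of Maf lay between 18896 and 83766 bp outside the gene and had at most 234.8 tags in any effector library. In the lavage Th2 library those of Epas1 had 38.0, 245.0, 42.4 and 39.9 tags, most of them near the peak minimum. Ahr, the aryl hydrocarbon receptor gene, and Rbpj had 3 each.

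Among common regions of this list, Zeb2, a zinc finger repressor gene of effector lymphocytes, showed the widest gap. There the tags were 453.2 and 468.4 in Th2 cells and 752.0 and 1000.9 in ILC2s, against 77.2 and 58.3 in resting cells, a difference of 3.74 (SE 0.21, adjusted p = 0.00029). Rora, a nuclear receptor gene on which ILC2 development depends, had 1121.6 and 808.7 tags in Th2 cells and 5787.8 and 6074.8 in ILC2s, against 374.5 and 443.8 in resting cells. Its difference of 3.06 (SE 0.78, adjusted p = 0.04) went with a further gap of 2.21 between ILC2s and Th2 cells (adjusted p = 0.00099). Over Gata3 itself the difference was 1.01 (SE 0.17, adjusted p = 0.01), in one region of 35 kb called in every library. Without centring the Gata3 difference was 0.49, and per kb of called peak 0.43. Bhlhe40, a repressor gene of interleukin 10, passed at its gene with 1.45 (adjusted p = 0.0015), and Gfi1, Nfil3, Id2, Prdm1 and Ikzf3 were each higher in at least 1 region.

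Genes of secreted effector molecules had 9 effector-only (21.4%) and 1 resting-only region (2.38%) among 42, beside 2.37% and 10.8% of all. Besides Il4 and Il13, the effector-only regions lay near Ccl1 (3), Il6 (2) and Il10 (2). Il10, the gene of a cytokine that restrains inflammation, had 911.3 and 1042.1 tags over the gene in Th2 cells but 240.1 and 176.0 in ILC2s. Il6 showed the opposite order between the effector types, with 143.4 and 143.2 tags in Th2 cells and 665.0 and 662.3 in ILC2s. Neither gene had a peak there in resting cells. Areg, which encodes the repair factor amphiregulin, was called on both sides and was higher in effector cells by 2.34 (SE 0.16, adjusted p = 0.00063). Il21 went the other way, with a region 16158 bp from the gene lower in effector cells (log2 difference -1.05, adjusted p = 0.0024).

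Cytokine receptor genes split. Of 79 regions, 5 (6.33%) were effector-only and 12 (15.2%) resting-only, beside 2.37% and 10.8% of all regions with a gene. Of 31 common regions 11 were higher and 2 lower in effector cells, beside 11.7% and 7.3% of all common regions. These counts turned with the scaling: with equal numbers of peaks 9 were effector-only and 3 resting-only, and without centring 6 were higher and 6 lower. Il9r, the interleukin 9 receptor gene, had an effector-only region over its start with 369.7 and 407.7 tags in Th2 cells and 651.0 and 670.2 in ILC2s, and 2 resting-only regions farther away with at most 187.3 tags. Il2ra, the gene of the high-affinity interleukin 2 receptor chain that activated lymphocytes show, had 2127.6 and 2229.0 tags in Th2 cells and 2710.3 and 2913.7 in ILC2s, against 910.0 and 936.5 in resting cells (difference 1.94, SE 0.14, adjusted p = 0.00077). Icos, a costimulatory receptor gene, had a region with a difference of 3.41 (adjusted p = 0.0022). Il4ra and Il6st, which encode receptor chains for interleukins 4 and 6, were lower in effector cells (log2 differences -1.0 and -1.54, adjusted p = 0.0036 and 0.022). Tgfbr2, a TGF-β receptor gene, held 4 resting-only regions.

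Of the resting and recirculating T cell genes, 71 of 275 regions (25.8%) were called only in resting cells and 6 (2.18%) only in effector cells. Over all regions with a gene these shares were 10.8% and 2.37%. Of 44 genes with a region, 30 had more resting-only than effector-only regions, 1 had fewer and 13 were level. The 1 was Arhgap15, a Rac regulator gene placed on the list as a resting marker, with 5 effector-only regions and no resting-only one. Of 83 common regions 26 were lower and 8 higher in effector cells, with a median log2 difference of -0.65, but per kb of called peak 13 were lower and 20 higher, with a median of 0.06. The lower summed tags at these genes thus went with narrower peaks.

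Bach2, a repressor gene that keeps T cells undifferentiated, led with 10 resting-only regions among its 29. These had no effector peak, against between 42.0 and 276.3 tags in resting cells. Of its 7 common regions 2 were lower in effector cells (-1.45 and -1.24, per kb -0.05 and -0.11) and 1 higher (1.67, per kb 0.77). Foxo1 and Foxp1, forkhead genes of quiescence, had 5 resting-only regions each, Satb1, a chromatin organiser gene, 4, and Ccr7, the lymph node homing receptor gene, 3. Tcf7, which encodes TCF1, showed the deepest gap among common regions. It had 134.0 and 182.8 tags in Th2 cells and 259.0 and 427.9 in ILC2s, against 3964.3 in naive T cells and 2984.3 in the spleen, a difference of -3.39 (SE 0.31, adjusted p = 0.0013).

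Lef1, the partner of Tcf7, had 4 resting-only regions and 2 common ones that were lower in effector cells. The wider, over the gene body, had 216.3 and 289.8 tags in Th2 cells and 208.5 and 228.6 in ILC2s, against 2510.7 and 1606.8 in resting cells (-2.58, SE 0.27, adjusted p = 0.002). Per kb of called peak the sign turned for both (0.28 and 0.41), since the peaks of resting cells there were far wider. Satb1 fell by 1.99 (adjusted p = 0.026) and Ccr7 by 1.39 (adjusted p = 0.037) over the genes. Klf2 and S1pr1, the factor and receptor of lymphoid exit, did not pass over the genes (differences of -0.63 and -0.64, adjusted p = 0.19 and 0.13), and for S1pr1 the difference per kb was 0.12. Klf2 had 2 resting-only regions and S1pr1 had 1, of at most 89.0 and 80.8 tags, and a region 41653 bp from S1pr1 was higher in effector cells by 1.91 (adjusted p = 0.0037).

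Nsg2 and Dapl1, both markers of naive T cells in mice, had regions over the genes that were called on the resting side alone. Nsg2 had 696.3 and 496.0 tags over its start in resting cells, and Dapl1 391.6 and 260.1, each with no effector peak. Ccr9, a gut and thymus homing receptor gene, had a resting-only region over its start (245.8 and 194.4 tags) and a common one 6074 bp away that was higher in effector cells by 1.85 (adjusted p = 0.03). Genes that restrain growth had 22 resting-only (16.2%) and 1 effector-only region (0.735%) among 136, beside 10.8% and 2.37% of all. Btg1, an antiproliferative gene, held 6 of the resting-only ones. Of the 58 common regions of the growth list 9 were higher and 8 lower, but 2 and 19 without centring.

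**Figure D3:**
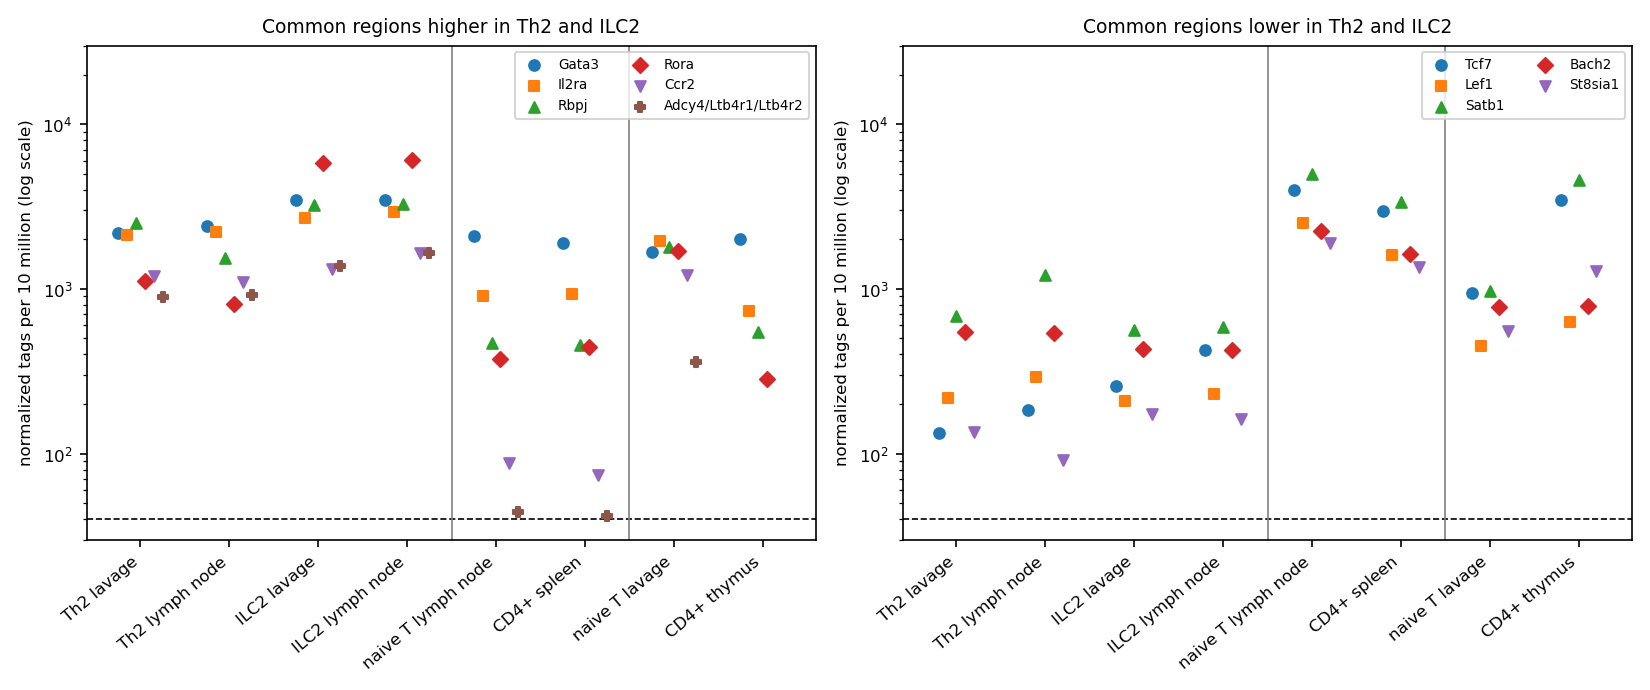
Normalized tags per 10000000 on a log axis in each of the 8 libraries for 6 regions higher (left) and 5 lower (right) in Th2 cells and ILC2s, all called in the 6 compared libraries, with the peak threshold dashed. The genes were drawn because their difference had passed, so the gap between the 4 effector and 2 resting points follows from that choice, and the lavage naive T points of the right panel lie between the sides, except at Satb1, where the point lies within the effector range.

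By number of regions, the genes that leaned most to the effector side were Itpr1, the inositol trisphosphate receptor gene of calcium release, with 6 regions, and Arhgap15 and Sik3, a salt-inducible kinase gene, with 5 each. Pparg, Eed, Epas1 and Maf followed with 4, then Il1rl1, Rbpj and Gm5127 with 3. The 4 regions nearest Eed, a Polycomb subunit gene, all lay 16719 bp or more outside it. The tallest region of Gm5127, with 414.5 and 551.8 tags in Th2 cells and 1105.6 and 1091.1 in ILC2s, also overlapped Cysltr1, the cysteinyl leukotriene receptor gene. On the resting side Bach2 was followed by Cyria and Itga9 with 8 each, Msra with 7, and Bach1, Zfand3, Btg1 and St8sia1 with 6. Of these, Itga9 encodes an integrin chain and St8sia1 the ganglioside GD3 synthase. Effector-only and resting-only regions met at 110 genes, 21.5% of the 511 genes with an effector-only region and 5.22% of the 2106 with a resting-only one, beside 16.4% of all 12822 genes with a resting-only and 3.99% with an effector-only region.

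Height at the 11688 regions called in all 6 libraries was compared next, since there both sides have a measured value. After each library was centred on its median, 1364 regions (11.7%) were higher and 853 (7.3%) lower in effector cells (limma, adjusted p under 0.05). The median differences of these groups were 1.08 and -0.79. Centring removed a shift of -0.52 between the sides. Without it the counts were 463 higher and 2568 lower, so every direction here is relative to that median. The calls leaned on both resting libraries: 361 were higher and 51 lower without the naive T library, and 441 and 85 without the spleen. With terms for site, 0 regions passed in limma, and 1652 had an unadjusted p under 0.05.

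Among the 5 higher regions with the smallest p-values, Ccr2, a chemokine receptor gene, had 1203.1 and 1107.8 tags in Th2 cells and 1328.9 and 1655.3 in ILC2s, against 88.2 and 73.7 in resting cells, a difference of 4.52 (SE 0.11, adjusted p = 6e-05). A region shared by Adcy4 and the leukotriene B4 receptor genes Ltb4r1 and Ltb4r2 had 892.7 and 923.2 tags in Th2 cells and 1379.0 and 1651.7 in ILC2s, against 44.3 and 42.0 in resting cells. Its difference of 5.25 (SE 0.14, adjusted p = 6e-05) was the largest of all common regions. Cdk6, a cell cycle kinase gene (4.39), Evi5, a Rab regulator gene (3.5), and Nfkb1, the NF-κB p105 gene (2.72), completed the first 5. Nfkb1 held 3 effector-only regions besides.

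Downward, the first 5 were Slc17a9, a vesicular nucleotide transporter gene (-1.82), Hsdl1 with Dnaaf1 (-1.64), St8sia1 (-3.03), Card6 (-1.42) and Lef1. St8sia1 had 135.9 and 91.8 tags in Th2 cells and 174.4 and 162.5 in ILC2s, against 1909.0 and 1359.7 in resting cells. The sides did not overlap in 3191 common regions with effector cells above and 3186 with effector cells below, of 11688. Among higher regions 331 (24.3%) also differed between ILC2s and Th2 cells, and among lower ones 121 (14.2%), beside 3122 (26.7%) of all common regions. The test between the sides counts a gap between ILC2s and Th2 cells as spread. It calls regions with such a gap less readily, so these shares depend on the selection. Higher regions were covered by more called base pairs (median log2 difference 0.67) and had more tags per kb (0.44), and lower ones by fewer (-0.55) with fewer per kb (-0.25).

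Migration and residency genes, a list with 19 higher and 1 lower of 38 common regions, had 10 effector-only (11%) and 6 resting-only regions (6.59%) among 91. Without centring 12 of the common regions were higher and 3 lower. With the lavage naive T library added to the resting side the counts were 0 and 0, beside 179 and 67 over all regions. Ccr3, the eotaxin receptor gene, had 2 effector-only regions, the one over its start with 292.4 and 447.3 tags in Th2 cells and 252.1 and 309.2 in ILC2s. Itga4, the α4 integrin gene, had 2 resting-only regions. Ccr4 and Ccr8, chemokine receptor genes of Th2 cells, and Rgs1, a regulator gene of chemokine signals, were chosen after their values were seen. They were higher over the genes by 2.31, 1.63 and 1.88 (adjusted p = 0.0025, 0.0018 and 0.00028). Genes of AP-1, NF-κB and other activation factors had 12 (10.3%) and 7 (6.03%) of 116 regions called on one side, but 4 and 5 with genes taken within 10 kb and 12 and 12 with every gene within 50 kb. Of their 60 common regions 15 were higher and 1 lower, or 9 and 11 without centring. Costimulation and TNF receptor genes had 6 (4.41%) and 11 (8.09%) of 136, beside 2.37% and 10.8% of all, or 4 and 2 with equal numbers of peaks. Of their 55 common regions 17 were higher and 0 lower, or 8 and 4 without centring, where the median difference was -0.04 in place of 0.48.

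T cell receptor and signalling genes had 2 effector-only (1.27%) and 23 resting-only regions (14.6%) among 157, and 4 higher and 4 lower of 54 common regions, which were 3 and 20 without centring and 15 and 2 per kb. Prkcq, a kinase gene of the T cell synapse, and Ets1, a lymphocyte transcription factor gene, had 4 resting-only regions each, none above 251.9 tags. Cd3d and Cd3e did not pass between the sides (-1.39 and -1.4, adjusted p = 0.36 and 0.41), while ILC2s were lower there than Th2 cells (log2 differences of -2.99 and -3.35). Th1 and cytotoxic genes had 7 and 19 of 93, or 9 and 7 with equal numbers of peaks. Stat4, which carries interleukin 12 signals, held 3 effector-only and 1 resting-only region, and Eomes, a cytotoxic factor gene, 4 resting-only ones. For follicular helper genes the counts were 5 (8.62%) and 10 (17.2%) of 58 regions and for those of regulatory T cells 4 (6.67%) and 5 (8.33%) of 60, beside 2.37% and 10.8% of all, but with equal numbers of peaks they turned to 6 and 4 and to 8 and 3. For Th17 and ILC3 genes they were 5 and 1 of 22, where 3 of the 5 were those of Ahr, and 1 and 1 with genes taken within 10 kb. Housekeeping genes had 0 and 0 of 29, with 2 higher and 1 lower of 22.

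**Figure D4:**
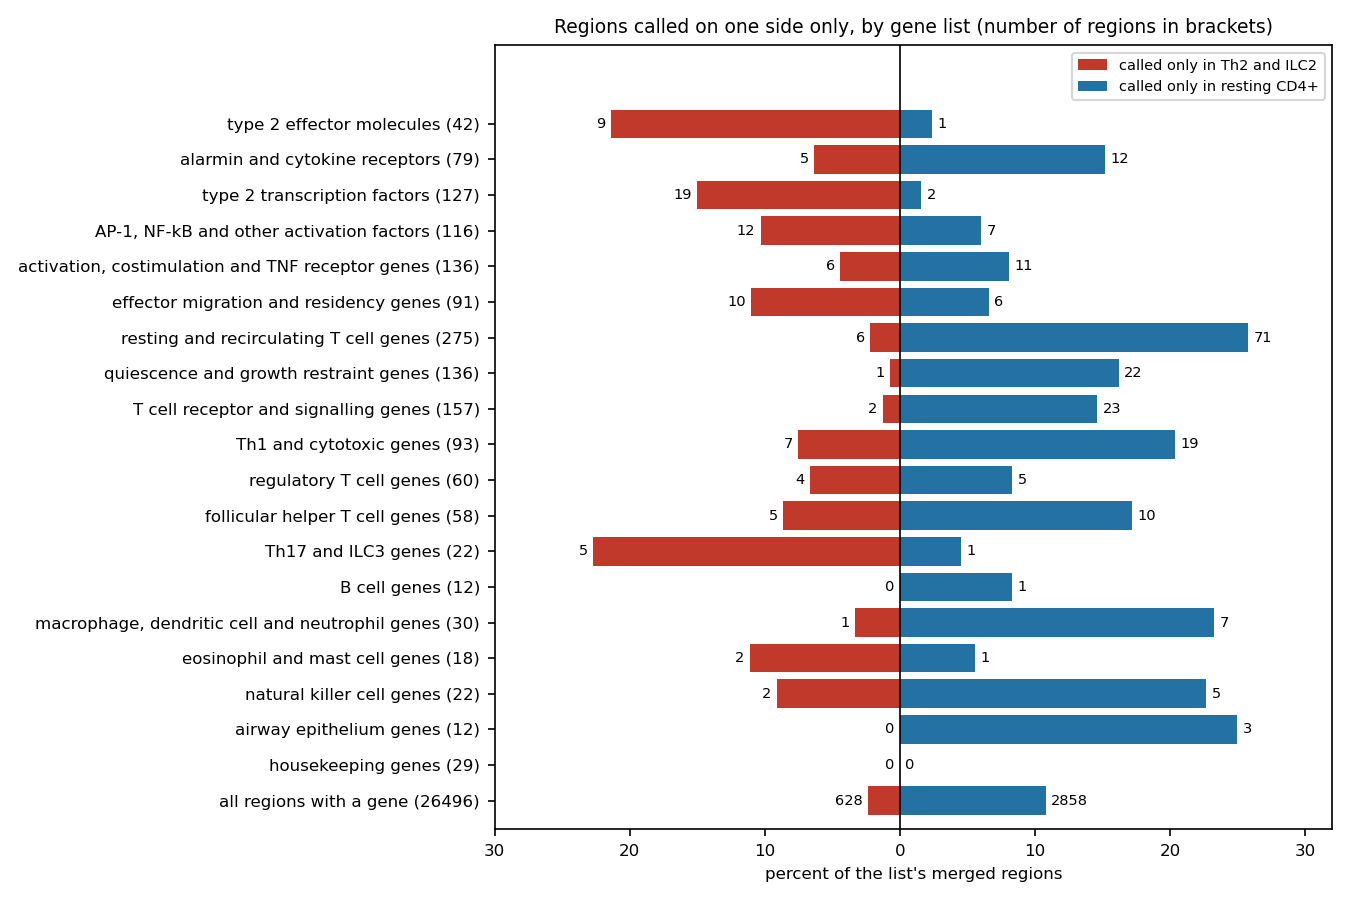
Share of the merged regions of each gene list that were called only in Th2 cells and ILC2s (red, to the left) or only in resting CD4+ cells (blue, to the right), in percent, with the number of regions at each bar's end and the list's regions in brackets. The type 2 transcription factor bar runs to 15% on the left and the resting T cell bar to 25.8% on the right, beside 2.37% and 10.8% of all regions with a gene.

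Markers of other cells that a sort could carry along were read in the same way. Of their regions, 3 of 12 were resting-only for airway epithelium genes (25%), 7 of 30 for macrophage, dendritic cell and neutrophil genes (23.3%) and 5 of 22 for natural killer genes (22.7%), beside 10.8% of all. B cell genes had summed levels of 190.5 to 745.3 tags in effector libraries and 866.2 to 885.2 in resting ones, and 5 of the 12 in the annotation, among them Ms4a1 and Cd79a, had no region nearest them in any of the 6. Macrophage, dendritic cell and neutrophil genes summed to between 1463.0 and 2882.3 tags, against 3027.9 to 3658.9 in resting libraries, with 13 of 24 lacking a region, including Cd68, Csf1r, Lyz2 and Adgre1. Eosinophil and mast cell genes summed to between 423.3 and 3460.4 tags, against 228.0 to 479.4. Kit, chosen after its values were seen, carried 1905.0 and 2041.7 of the ILC2 tags and Ccr3 all of the Th2 ones, while 10 of 17 genes, Prg2, Epx and Siglecf among them, had no region. Natural killer genes summed to 969.6 to 2083.7 tags, against 1993.0 to 2560.1, with Ncr1 at 0, and epithelial genes to 117.1 to 557.3 tags, against 598.6 to 869.0, with Krt5, Scgb1a1 and Sftpc at 0. Other members did have peaks, and those given here were chosen after their values were seen. Ebf1 had no peak in Th2 cells, 261.4 and 197.5 tags in ILC2s and 264.5 and 238.7 in resting cells. Spi1 had none in Th2 cells, 66.1 and 119.6 tags in ILC2s and 357.1 and 276.9 in resting cells. Eomes had 153.3 and 101.9, 513.1 and 415.6, and 1384.5 and 914.3 in the same order. Cd74 had peaks in ILC2s alone (164.0 and 174.8). The part of such cells in the results was not tested.

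The regions that differed were also described by length and place. Length depends in part on the rule, since an effector-only region merges peaks of 4 libraries, a resting-only one of 2 and a common one of 6. Effector-only regions had a median length of 2907.5 bp and resting-only ones 1560 bp, beside 3779 bp for common regions and 2533 bp for all. Few covered a promoter: 7.33% of effector-only and 12.1% of resting-only regions covered an annotated promoter, against 63.5% of common regions and 35.8% of all. A gene lay under 56.9% and 62.0% of them, against 73.8% of all, and 9.77% and 7.93% had no gene within 100 kb, against 4.42%. Within effector-only regions the median height was 92.9 and 85.1 tags in Th2 cells and 145.5 and 143.9 in ILC2s, and the median log2 ratio of ILC2s to Th2 cells was 0.58, beside 0.42 in all common regions.

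Of 176 annotated microRNA hairpins in merged regions, 3 lay in effector-only and 5 in resting-only regions, beside 2.51% and 11.2% of all regions with those patterns. The hairpin of miR-146b, a microRNA known to restrain NF-κB signalling, lay in an effector-only region with 42.4 and 84.2 tags in Th2 cells and 141.9 and 153.7 in ILC2s. The microRNAs shown were chosen after their values were seen. Resting-only regions held miR-203 (142.2 tags in naive T cells and 129.6 in the spleen) and miR-196b (86.1 and 55.5). Their RefSeq mature sequences follow, with the seed (bases 2 to 8) in capitals, and no seed was shared.
mmu-miR-146b-5p: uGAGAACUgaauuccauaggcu
mmu-miR-203-3p: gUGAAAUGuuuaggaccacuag
mmu-miR-196b-5p: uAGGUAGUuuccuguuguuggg

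The libraries left out of the comparison were read last. Of the effector-only regions, 464 (66.7%) had a peak in the lavage library labelled naive T, against 452 (14.6%) of the resting-only regions and 57.7% of all merged regions. CD4+ thymus cells had a peak in 62 (8.91%) of the effector-only and 1938 (62.4%) of the resting-only regions. Beside 64.2% of all merged regions, only the effector-only share stood apart. At common regions higher in effector cells, the lavage naive T library lay above both resting libraries in 1286 of 1345 (95.6%), against 44.8% of all tested, and at lower ones it lay below both in 96.1%, against 45.7%. Thymus cells lay above both in 45.0% of the higher regions and below both in 61.0% of the lower ones, against 38.7% and 47.4% of all tested.

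Gene by gene the lavage naive T library was not uniform. It had no peak at 1 of the 3 Il1rl1 regions and 181.4 tags at the tallest, below every effector value there, and 131.7 tags at Il13, against 187.7 at Il4. At Ccr2 it had 1220.8 tags and at Cdk6 1118.8, within the effector range, and at Tcf7 945.0, above all 4 effector values and below both resting ones. With this library added to the resting side, 232 regions were called only in effector cells and 452 only in resting cells, and limma called 179 higher and 67 lower. The Jaccard index of base pairs averaged 0.687 within the 2 sides and 0.542 between them, a difference of 0.144 (p = 0.0667 by an exact permutation over the 15 choices of 2 libraries, one-sided and the lowest possible). Within the effector side the Th2 pair had 0.782 and the ILC2 pair 0.834, but Th2 with ILC2 libraries only 0.578 to 0.6, beside 0.522 to 0.558 between effector and resting libraries. Lymph node naive T cells and spleen CD4+ cells reached 0.845. The lavage naive T library reached 0.74 and 0.704 with the Th2 libraries. With the ILC2 libraries it reached 0.618 and 0.611, against 0.613 and 0.643 with the resting ones.

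**Figure D5:**
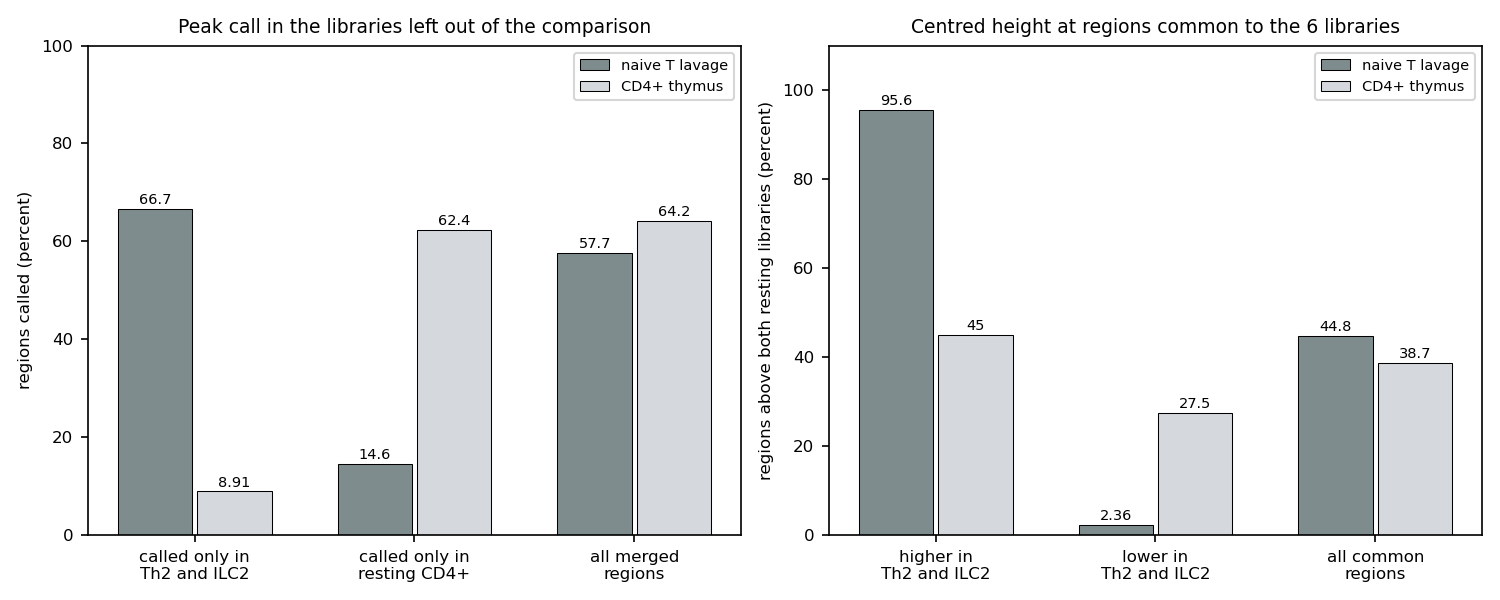
Left, percent of regions with a peak in the lavage naive T library (dark) and the CD4+ thymus library (light), for regions called only in Th2 cells and ILC2s, only in resting CD4+ cells, and for all merged regions. Right, percent of common regions at which each of the 2 libraries lay above both resting libraries after centring, for regions higher or lower in effector cells and for all; the lavage naive T library reached 95.6% at the higher regions and 2.36% at the lower.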

How the data were processed

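H3K4me2 was measured by ChIP-seq. Bowtie, HOMER and the mm10 build are named in the submitters' processing notes. Per the file headers, peaks were called for each library alone with HOMER findPeaks in region mode against an IgG library, with a tag minimum of 39.9 to 40.4 per 10000000. The deposited signal of a peak is its normalized tag count per 10000000 tags; it is not a raw count, so limma 3.58.1 (R 4.3.3) was used on log2(summed tags + 1), centred per library, with a mean-variance trend and Benjamini-Hochberg adjustment over the 11688 common regions. Peaks were merged within 500 bp. Genes are the nearest protein-coding or receptor constant interval within 100 kb in the RefSeq table of GRCm38.p6, found for 95.6% of regions; that table gives no exons, so introns and untranslated regions were not told apart. A bystander peak within 500 bp counted for a region. The test was checked on simulated data. Depth limits calls near the minimum.

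Some genes that the naming rule selects are not reported here. The members and the gene lists were chosen with earlier results of these data known. Named are, for each direction, the 10 genes with most excess regions, the 5 tallest regions, the 5 smallest p-values, 14 marker genes, members of the 5 core lists that moved, and 3 members of each other list. Alternatives covered merging, thresholds, list length, scaling, gene windows and libraries.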

Additional observations from a re-analysis of the deposited data

Results flagged for a closer look

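Among 46 regions with 4 effector values, 2 had one library apart from the other 3 by Dixon's criterion. The 46 were tallest regions, those with the smallest p-values and those of the marker and CD3 genes. Chance alone flags about 1 in 20 groups drawn from a single population. Each group here joined Th2 and ILC2 libraries, so that rate need not hold where the cell types differ. The 2 were a region 89312 bp outside Lef1, with 107.4 tags in the lavage ILC2 library, and one 66923 bp outside S1pr1, with 54.9 tags in the lavage Th2 library.

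ILC2s and Th2 cells differed from each other (limma, adjusted p under 0.05) at 20 of 36 common regions, beside 26.7% of all common regions. The 36 were regions of the marker and CD3 genes or with the smallest p-values. Other regions named above, such as that of Rora, were not counted here. ILC2s were higher at the Rad50 and Il5 region by 0.84 on the log2 scale, at Il18r1 by 1.42, at Chdh and Il17rb by 2.64, at 2 regions of Ccr7 by 1.1 and 0.8, and at a distal S1pr1 region by 0.62. They were lower at 3 regions of Lef1 (-0.62, -0.73 and -0.63), at Klf2 (-0.84), at 3 of S1pr1 (-0.99, -1.76 and -0.67), at 4 of Foxp1 (-0.81, -0.9, -3.17 and -1.32), at Satb1 (-1.1), at Cd3d (-2.99) and at Cd3e (-3.35).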

How the results depend on the processing

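No paired analysis was possible because the 2 sides share only 1 label number, that of the lymph node. Counts are given as effector-only and resting-only. They stayed within 1.5 times of 696 and 3104 with merging at 0 or 2500 bp, a minimum of 60 tags, and the autosomes alone, an alternative chosen after seeing the data. They were 447 and 2241 at a minimum of 80 tags, 959 and 1392 with equal numbers of peaks, 1145 and 4685 with 3 of 4 effector or 1 of 2 resting libraries, 959 and 5031 in the lymph node, 232 and 452 with lavage naive T added, 634 and 1938 with thymus added, 940 and 5923 for Th2 and 3959 and 3490 for ILC2 libraries alone. Leaving out 1 library gave 715 to 921 and 3159 to 4574.

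Counts of higher and lower common regions were 2105 and 1202 per kb, 463 and 2568 without centring, 5301 and 2701 over all merged regions, 2884 and 2434 with 3 groups, 0 and 0 with site terms, 179 and 67 with lavage naive T added, and 361 to 1467 and 51 to 986 without 1 library. The fit over all merged regions, unlike the others, set 40 tags where a library had no peak. Its counts thus rest in part on set values and not on measured height alone. The tallest peak, a pseudocount of 10, no trend, equal numbers and the autosomes stayed within 1.5 times. With site terms the spleen library sets its own term, so 1 resting library carries the contrast. The Jaccard difference was 0.107 to 0.173 without 1 library. With equal numbers of peaks, 22.1% of resting-only regions were called in the lavage naive T library.

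Among common regions of the marker and CD3 genes or with the smallest p-values, 2 past the threshold changed sign, both per kb at Lef1 (0.41 and 0.28). Regions that had not passed also turned: per kb 2 of S1pr1 (0.37 and 0.12) and 2 of Foxp1 (0.2 and 0.35), without centring Il18r1 (-0.27), S1pr1 (-0.34) and Foxp1 (-0.34), and with lavage naive T added Il18r1 (-0.41), Ccr7 (0.24) and S1pr1 (-0.14). Without 1 library Il18r1 ran between -0.06 and 0.6 and that S1pr1 region between -0.03 and 0.37. Outside the marker and smallest-p regions, called regions of core-list genes also turned per kb. Among them were Epas1 (0.87 to -0.09), Foxo1 (-0.86 to 0.05), Klf13 (-1.05 to 0.21) and Elf4 (-1.08 to 0.38). Of all 2217 called differences, 1986 kept their sign per kb and 2099 without centring. With equal numbers of peaks the lists of receptors (9 and 3), migration (12 and 0), Th1 (9 and 7), activation (4 and 2), follicular helper (6 and 4) and regulatory T cell genes (8 and 3) leaned to the effector side, and those of resting (10 and 42) and T cell receptor genes (1 and 9) to the resting side. The cause of these shifts was not tested.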
